A study of Rattus norvegicus with 8 samples.

Results

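Plin1, Cidec, Lipe, Adrb3, Fabp4, Pck1, Adipoq, Lep, Cfd, and Pparg are white adipocyte genes, which serve lipid storage, lipolysis, and the secretion of adipokines. They were followed in thyroid RNA from 8 male Wistar rats. The rows with these 10 symbols were taken from the deposited counts, and for each gene the transcript with the highest total count over the 8 libraries was used. All 10 were found among 30560 gene identifiers, and all 10 passed the filter on low counts in every comparison. Rats received 4 Gy of cervical X-irradiation (1w4Gy) or sham-irradiation (1w0Gy) at 1 week of age, or the same at 4 months of age (4m4Gy and 4m0Gy), with thyroids collected some 8 weeks afterwards. Each group holds 2 libraries from separate rats, which the study picked from each group for the integrity of their RNA.

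White adipocytes hold 1 large lipid droplet and store fatty acids as triglycerides. Insulin favours storage, and catecholamines acting through beta-adrenergic receptors release the fatty acids again. The same cells secrete adipokines, hormones that report on energy stores. The thyroid is wrapped in connective tissue with fat, and the interscapular and cervical region of the rat also has brown fat, whose adipocytes share most of these genes but burn lipid through Ucp1. Pparg and Fabp4 are also made by macrophages and, for Fabp4, by capillary endothelium, and Pck1 is a main gluconeogenic gene of liver and kidney.

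The libraries held 14835406 to 18138113 counts on genes, of which thyroglobulin (Tg) took 18.5% to 21.3%. Counts of the 2 libraries of a group differed by more than sampling noise, the chi-square over genes being 7.97 to 16.2 times its degrees of freedom, so no library counted as a repeat of another. Levels below are CPM, counts scaled to the size of each library with TMM factors, and log2 fold changes are from edgeR's quasi-likelihood test with its standard error (SE) and its Benjamini-Hochberg adjusted p over all genes tested. With 2 libraries per group the p-values measure only the spread between these libraries, and the test draws each gene's spread toward that of other genes. A gene was called in an irradiation comparison at an adjusted p under 0.05 with a fold above 1.5 or under 0.5, so a decrease smaller than 2-fold could not be called.

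The promoters are shown first, as a description. C/EBP factors, which bind sites of the form TTGCNNAA, are known adipocyte regulators. Whether they bear on the levels of the 10 genes was not tested. RefSeq promoters of assembly GRCr8 were at hand for 7 of the 10 genes (Plin1, Pck1, Lep, Cidec, Pparg, Cfd, and Adipoq). Within the 250 bases before a start, on either strand, TTGCNNAA was found for 4 of the 7 genes, against 9.22% of 33469 promoters. A gene counted if any of its listed promoters matched, whereas the shares of all promoters take each promoter singly. Below are the 250 bases before the start of Lep at chr4:58626288-58626537 on the plus strand, of Plin1 at chr1:143086149-143086398 on the minus strand, and of Cidec at chr4:148137116-148137365 on the minus strand, each 5′ to 3′ with the matching site in capitals.
Lep: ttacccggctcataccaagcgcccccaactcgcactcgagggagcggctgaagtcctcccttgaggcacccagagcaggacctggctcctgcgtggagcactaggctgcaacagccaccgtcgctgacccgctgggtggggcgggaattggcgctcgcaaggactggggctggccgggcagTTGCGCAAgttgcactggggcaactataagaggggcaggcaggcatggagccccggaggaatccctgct
Plin1: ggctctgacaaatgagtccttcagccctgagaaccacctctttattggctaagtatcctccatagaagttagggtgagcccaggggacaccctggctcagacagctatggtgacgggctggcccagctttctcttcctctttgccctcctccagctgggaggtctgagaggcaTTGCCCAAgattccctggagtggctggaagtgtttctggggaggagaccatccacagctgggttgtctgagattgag
Cidec: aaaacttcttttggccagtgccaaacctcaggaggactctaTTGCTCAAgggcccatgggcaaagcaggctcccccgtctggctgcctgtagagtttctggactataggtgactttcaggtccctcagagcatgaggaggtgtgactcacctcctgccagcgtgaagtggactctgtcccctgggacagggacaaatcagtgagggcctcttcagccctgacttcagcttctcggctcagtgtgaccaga
The last base of the site lay 62 bases before the start in Lep, 70 in Plin1, and 202 in Cidec, and the fourth match, TTGCCAAA, lay 167 bases before the second listed start of Pparg. The nuclear receptor site AGGTCA was found for Pck1 alone, against 14.1% of all promoters, and its direct repeat with 1 base between, the form bound by Pparg with its partner Rxra, for none of the 7, against 0.0508%. CCAAT was found for 4 of the 7 (Plin1, Lep, Pparg, and Adipoq), against 34% of promoters, and TATAAA for none, against 12.9%. These are matches of letters in 1 short window and do not show binding.

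To set levels between genes side by side, the deposited TPM, which are scaled by transcript length, were used. In 1w0Gy Fabp4, the fatty acid carrier, was highest with 130.2 ± 13.6 TPM (SD, n = 2), followed by Adipoq with 59.6 ± 18.8, Cfd with 45.4 ± 9.77, Plin1 with 27.5 ± 3.41, Lipe with 24.3 ± 2.25, and Cidec with 19.5 ± 4.56 TPM. Pck1 had 10.7 ± 0.312, Pparg 7.86 ± 1.07, Adrb3 3.48 ± 0.566, and Lep 3.22 ± 1.04 TPM. Adipoq and Cfd, Plin1 and Lipe, Lipe and Cidec, and Adrb3 and Lep were neighbours whose libraries overlapped. The TPM value of Fabp4 depends on the transcript taken. Its rows of 1719 and 656 bases held 21103 and 20871 counts in all, nearly the same reads. The shorter row would give a higher value, so Fabp4 stays highest with either.

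After neonatal irradiation all 10 genes had lower values, against 50% of all genes with an estimate below 0. For each of the 10, both 1w4Gy libraries lay below both 1w0Gy libraries, a pattern that 17.8% of the 15359 genes tested showed. The median log2 fold change of the 10 genes was -0.69, with a range of -1.14 to -0.36, against 0.00 over all genes. None of the 10 was called, and 0.00651% of all genes tested were called (1 gene, which was higher), with none called lower. All 10 had an unadjusted p under 0.05, which 2.37% of the genes tested reached with a lower value. The smallest adjusted p of the 10 was 0.283. With edgeR it was 0.788 in 1 fit of all 8 libraries, 0.489 with counts summed over transcripts, and 0.476 without robust estimation. After adult irradiation all 10 estimates were again below 0 (48.1% of genes), with a median of -0.52 against 0.01 over all genes, and none was called, against 0.0197% of the 15253 genes tested (0.00656% called lower). Here only Adrb3 had an unadjusted p under 0.05 (4.96% of genes with a lower value), and only Adrb3 and Adipoq had 4m4Gy libraries that lay entirely below 4m0Gy (18.7% of genes). With the DESeq2 Wald test 4 of the 10 had a neonatal adjusted p under 0.05 (Plin1 3.258e-04, Fabp4 0.00302, Pck1 0.00302, and Cfd 0.0485). None of the 4 was under the fold limit, and with that limit DESeq2 called 13 genes in all. The share of all genes with a DESeq2 adjusted p under 0.05 at any fold is not given here. In the adult comparison none of the 9 that DESeq2 gave an adjusted p had one under 0.05 (it gave Adrb3 none). In these bulk samples fewer adipocytes and less RNA of these genes per adipocyte cannot be told apart.

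**Figure D1:**
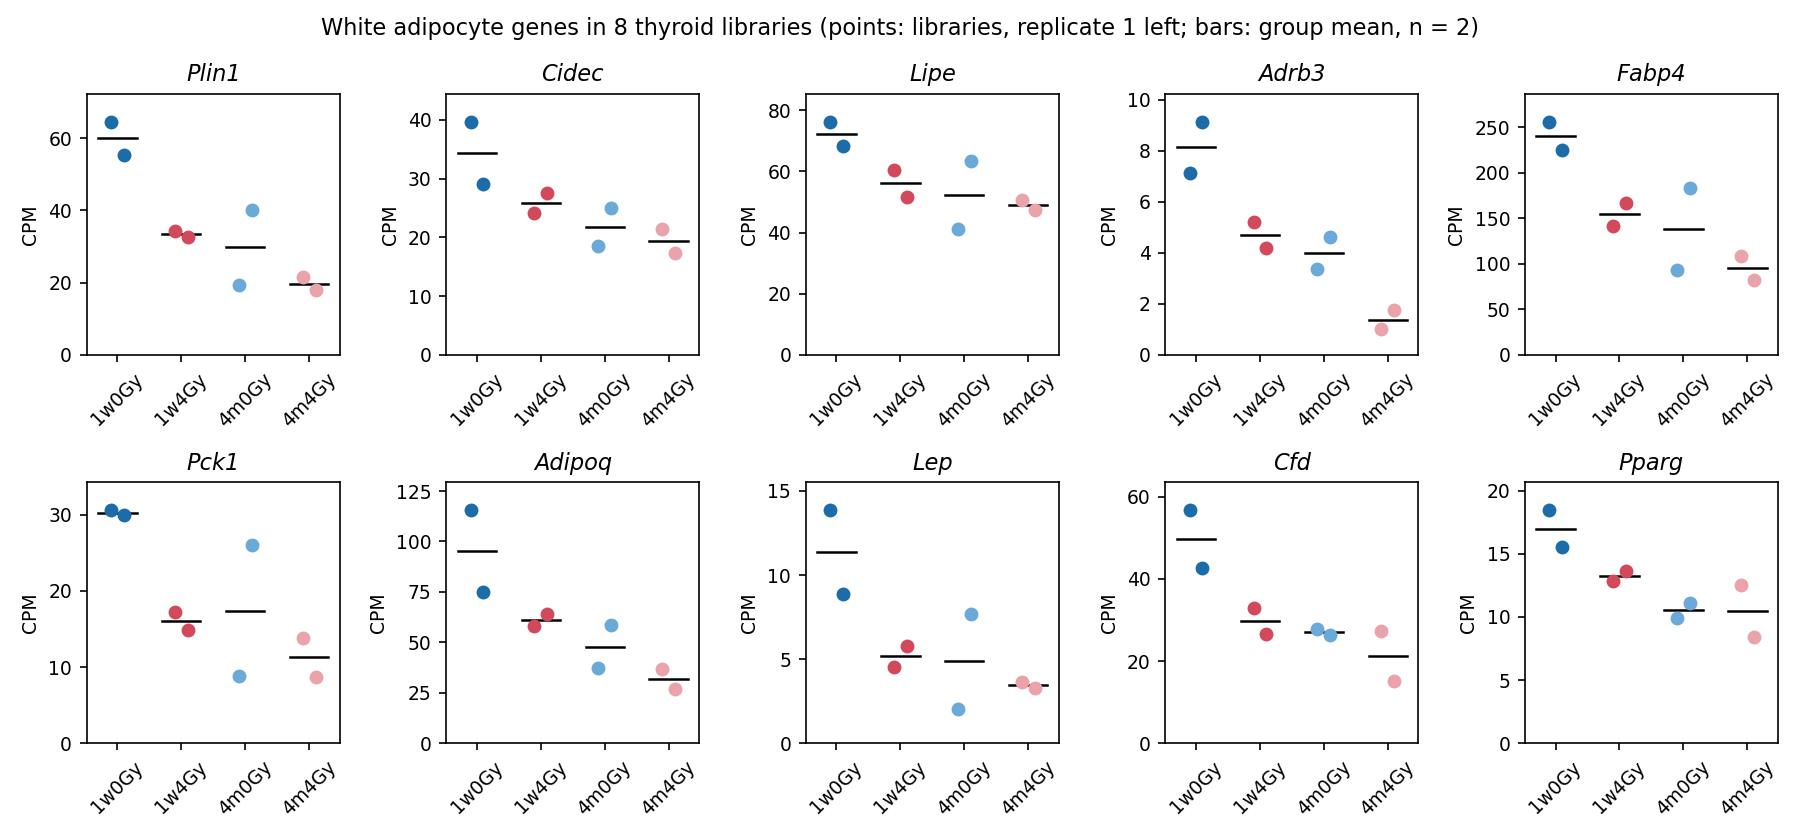
CPM (vertical axis, starting at 0) of each of the 10 genes in the groups 1w0Gy, 1w4Gy, 4m0Gy, and 4m4Gy (horizontal axis); points are libraries and bars the mean of 2. In every panel both 1w4Gy points lie below both 1w0Gy points, and the 2 points of 4m0Gy lie far apart for Plin1, Fabp4, Pck1, and Lep.

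Plin1 coats the lipid droplet and guards it from lipases. It had 64.6 and 55.2 CPM in 1w0Gy against 34.3 and 32.5 in 1w4Gy, and 19.3 and 40.2 in 4m0Gy against 21.4 and 17.9 in 4m4Gy. The neonatal groups were well apart, while a 4m4Gy library lay above the lower 4m0Gy library. The log2 fold change was -0.84 (SE 0.10, adjusted p 0.283) after neonatal irradiation and -0.61 (SE 0.47, adjusted p 0.821) after adult irradiation. Cidec, which promotes the fusion of droplets, had 39.7 and 29.0 CPM in 1w0Gy against 24.1 and 27.5 in 1w4Gy, and 18.5 and 24.9 in 4m0Gy against 21.5 and 17.4 in 4m4Gy. Its neonatal difference was narrow, with 27.5 against 29.0 CPM between the nearest libraries, and its log2 fold change was -0.41 (SE 0.16, adjusted p 0.875). In the adult comparison it was -0.17 (SE 0.17, adjusted p 0.855).

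Lipolysis was represented by an enzyme and a receptor. Lipe encodes hormone-sensitive lipase, and it had 76.3 and 68.2 CPM in 1w0Gy against 60.6 and 51.5 in 1w4Gy, and 41.3 and 63.4 in 4m0Gy against 50.8 and 47.3 in 4m4Gy. Its highest library was 1.85 times its lowest, the smallest span of the 10 genes. The log2 fold change was -0.37 (SE 0.11, adjusted p 0.849) after neonatal and -0.10 (SE 0.24, adjusted p 0.94) after adult irradiation. Adrb3, the beta-adrenergic receptor of rodent adipocytes, had 7.12 and 9.15 CPM in 1w0Gy against 5.22 and 4.2 in 1w4Gy, and 3.36 and 4.63 in 4m0Gy against 0.996 and 1.75 in 4m4Gy. Its span of 9.19 times was the widest of the 10, and the 4m4Gy values rest on 15 and 27 counts. In the adult comparison its groups did not overlap, with a log2 fold change of -1.54 (SE 0.36, adjusted p 0.308), and after neonatal irradiation it was -0.79 (SE 0.22, adjusted p 0.849). Without a filter on low counts the adult value of Adrb3 passed the test, with an adjusted p of 0.0443. The share of all genes that passed without the filter is not given here.

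Fabp4 had 256.4 and 225.4 CPM in 1w0Gy against 141.6 and 167.2 in 1w4Gy, and 92.9 and 183.6 in 4m0Gy against 109.0 and 81.9 in 4m4Gy. It was lower in both 1w4Gy libraries (log2 fold change -0.64, SE 0.11, adjusted p 0.504), and the adult groups overlapped (-0.54, SE 0.50, adjusted p 0.858). Pck1, which makes the glycerol backbone on which fatty acids are stored again, had 30.6 and 29.9 CPM in 1w0Gy against 17.2 and 14.9 in 1w4Gy, and 8.79 and 26 in 4m0Gy against 13.9 and 8.74 in 4m4Gy. The neonatal groups were each tight and lay well apart, with a log2 fold change of -0.91 (SE 0.12, adjusted p 0.283). With any 1 library left out it lay between -1.02 and -0.81. The 2 libraries of 4m0Gy differed by 2.96 times, and the adult log2 fold change was -0.63 (SE 0.76, adjusted p 0.889).

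Among the secreted proteins, Adipoq encodes adiponectin, an adipokine linked to insulin sensitivity. It had 115.6 and 74.8 CPM in 1w0Gy against 58.4 and 64.3 in 1w4Gy, and 37.2 and 58.7 in 4m0Gy against 36.8 and 27.1 in 4m4Gy. No group overlapped its sham group, although in adults the gap was between 37.2 and 36.8 CPM. The log2 fold change was -0.63 (SE 0.21, adjusted p 0.875) after neonatal and -0.59 (SE 0.33, adjusted p 0.753) after adult irradiation. Lep, the satiety hormone leptin whose level follows fat mass, had 13.9 and 8.86 CPM in 1w0Gy against 4.54 and 5.81 in 1w4Gy, and 2.07 and 7.68 in 4m0Gy against 3.65 and 3.30 in 4m4Gy. It had the largest neonatal difference of the 10, a log2 fold change of -1.14 (SE 0.26, adjusted p 0.725), and both 4m4Gy libraries lay between the 2 of 4m0Gy (-0.50, SE 0.67, adjusted p 0.895). Cfd, the complement protease adipsin, had 56.7 and 42.6 CPM in 1w0Gy against 33.0 and 26.6 in 1w4Gy, and 27.9 and 26.5 in 4m0Gy against 27.4 and 15.3 in 4m4Gy. Its log2 fold change was -0.74 (SE 0.16, adjusted p 0.725) after neonatal and -0.35 (SE 0.31, adjusted p 0.834) after adult irradiation.

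Pparg, the nuclear receptor that drives adipocyte differentiation, had 18.5 and 15.5 CPM in 1w0Gy against 12.8 and 13.7 in 1w4Gy, and 9.95 and 11.1 in 4m0Gy against 12.5 and 8.42 in 4m4Gy. It had the smallest neonatal difference of the 10, with a log2 fold change of -0.36 (SE 0.14, adjusted p 0.875). In adults the 4m0Gy libraries lay between those of 4m4Gy, and the estimate was -0.01 (SE 0.21, adjusted p 0.993).

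Whether the response differed between the ages was tested by the interaction, coded as the neonatal minus the adult log2 fold change. None of the 10 was called, and of 15684 genes tested none was (0%). At an unadjusted p under 0.05 there were 0 of the 10 and 9.12% of all genes, and DESeq2 called 26 genes, no member among them. The estimate was below 0 for 9 of the 10 (52.3% of genes), with a median of -0.26 and a range from -0.63 (Lep, SE 0.77, adjusted p 0.858) to 0.75 (Adrb3, SE 0.42, adjusted p 0.637). The SE reached 0.77, so differences between the ages of this size could not be told from 0.

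In sham-irradiated rats all 10 genes had lower values in the older group (50% of genes did). For each, both 4m0Gy libraries lay below both 1w0Gy libraries, which held for 24.8% of the 15364 genes tested, and the median log2 fold change was -0.84 against 0.00 over all genes. None of the 10 was called at an adjusted p under 0.05, against 1.06% of all genes (0.54% called lower). Cfd came nearest (-0.87, SE 0.14, adjusted p 0.0566), followed by Pparg (-0.69, SE 0.15, adjusted p 0.0801) and Adrb3 (-1.02, SE 0.23, adjusted p 0.0929). These 3 and Cidec had an unadjusted p under 0.05, and 8.88% of genes did so with a lower value. The largest estimate was that of Lep, -1.21 (SE 0.65, adjusted p 0.435). With any 1 library left out the median of the 10 lay between -1.32 and -0.57. Macrophage and stroma markers had lower values with age as well, with medians of -0.67 and -0.49. This comparison uses the same sham libraries as the irradiation comparisons, so its values are not independent of theirs.

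**Figure D2:**
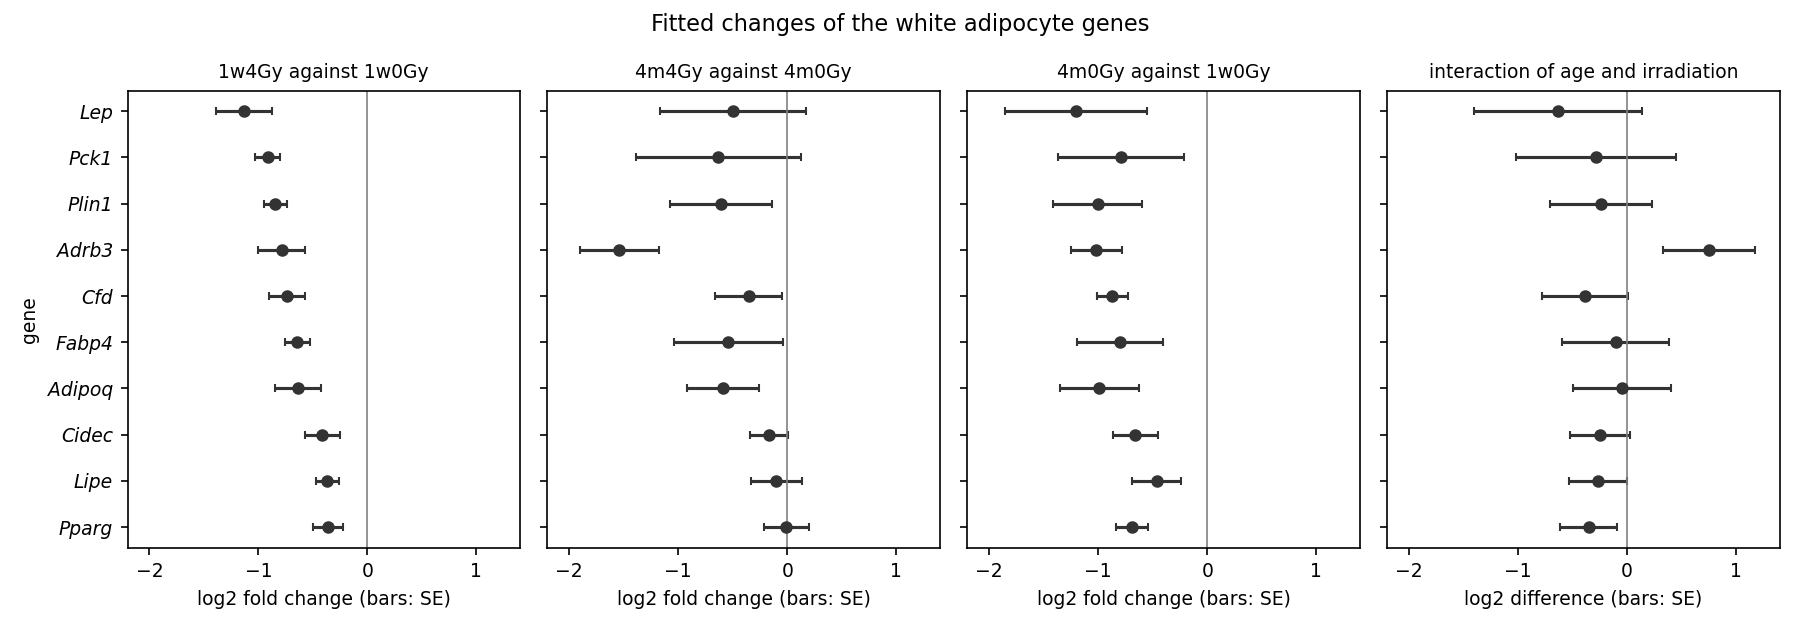
Fitted log2 fold changes (horizontal axis; bars are ± 1 SE) of the 10 genes (vertical axis) after neonatal irradiation, after adult irradiation, and with age in sham-irradiated rats, and the neonatal minus adult difference. The neonatal values lie from -1.14 to -0.36 with short bars, and in the adult panel only Adrb3, at -1.54, lies far from 0 relative to its bar.

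The libraries of a group differed from each other for these genes as a block. In 4m0Gy, replicate 2 was higher than replicate 1 for 9 of the 10 genes, with a median log2 difference of 0.64 (1.56-fold), a largest value of 1.89 (Lep), and Cfd as the exception. In 1w0Gy and in 4m4Gy replicate 2 was lower for 9 of 10, with medians of -0.24 and -0.36 and Adrb3 as the exception in both, and in 1w4Gy 5 were higher and 5 lower. Among the 14396 genes that averaged 1 CPM or more, 48.4% to 52.8% were higher in replicate 2. The first 1w0Gy library was the highest of the 8 for 9 of the genes, and the second 4m4Gy library the lowest for 7. Without the second 4m0Gy library the adult median of the 10 genes was 0.04 and 3 of 10 estimates were below 0. Without the first it was -0.92 with all 10 below 0. The direction of the adult difference thus depended on which 4m0Gy library was kept, whereas the neonatal median stayed between -0.82 and -0.53 with any 1 library left out.

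**Figure D3:**
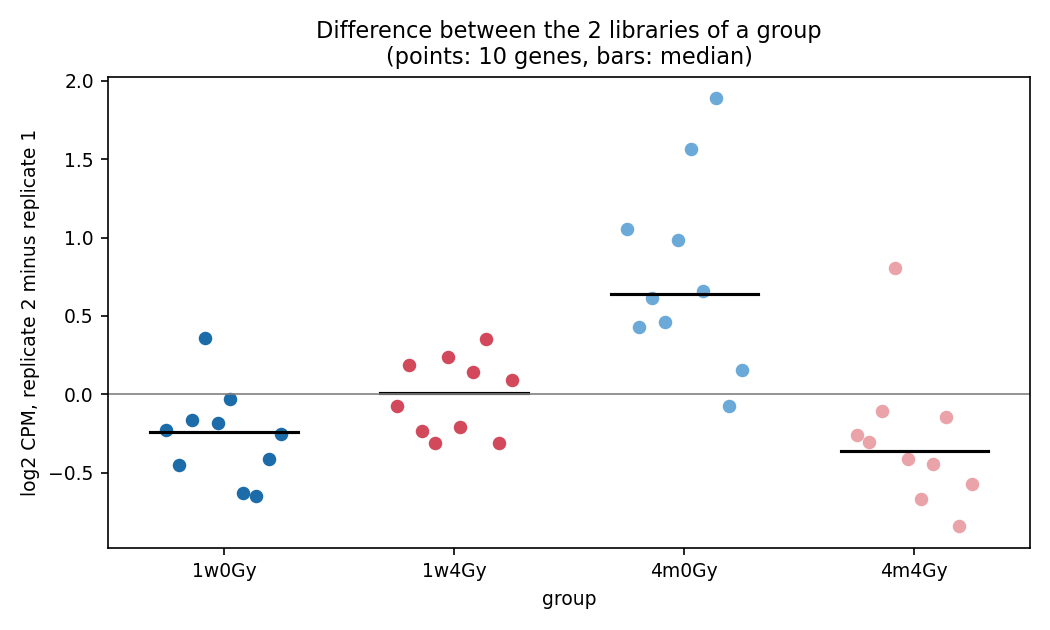
Log2 CPM of replicate 2 minus replicate 1 (vertical axis) in each group (horizontal axis), with 1 point per gene and a bar at the median. Nearly all points lie above 0 in 4m0Gy (median 0.64) and below 0 in 1w0Gy and 4m4Gy (medians -0.24 and -0.36).

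The 10 genes varied together over the 8 libraries but by unequal amounts, and Adrb3 did not follow the others within groups. Over the 8 libraries the Pearson r of log2 CPM between pairs had a median of 0.874 over 45 pairs, with a range of 0.599 to 0.985. After the group means were removed the median was 0.687, with a range of -0.749 to 0.991, and 40 of the 45 pairs were above 0. The pairs below 0 all held Adrb3, with Pparg (-0.749) and Cfd (-0.740) the lowest. These are descriptions over 8 libraries that share group, depth, and tissue. Per unit of change in the mean of the other 9, Adrb3 changed by 1.47 and Lep by 1.46 log2 units, Plin1 by 1.22, Fabp4 by 1.03, Cfd by 0.795, Cidec by 0.603, Pparg by 0.516, and Lipe by 0.447. Adrb3 followed the other 9 least closely (r of 0.765) and Plin1 most closely (r of 0.996).

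Of 14386 other genes that averaged 1 CPM or more, those whose log2 CPM followed the mean of the 10 most closely over the 8 libraries included Prkar2b, a regulatory subunit of protein kinase A (r of 0.990), Pdk1, a kinase of pyruvate dehydrogenase (0.984), Rbp4, a retinol carrier and adipokine (0.978), Trarg1, a protein of glucose transporter traffic (0.975), Akr1c14 (0.971), and Ucp3 (0.970). Csf2rb and Adam33 (0.967 and 0.965) and 3 identifiers without a name were also among the first 12. Prkar2b had 44.8 and 35.6 CPM in 1w0Gy against 30.1 and 29.4 in 1w4Gy, and 21.3 and 31.2 in 4m0Gy against 22.8 and 17.9 in 4m4Gy. Of the first 50 genes, 12 stood in the lipid list described next, of which 63 genes were compared.

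A wider list of 77 genes of lipid droplets, lipolysis, lipid uptake and synthesis, adipokines, and their receptors and regulators had 66 genes in the table. After neonatal irradiation 0 of 65 tested were called, 46 were below 0 (50% of all genes were) and 19 above, and the median log2 fold change was -0.09. Lower and without overlap were 31 of the 65 (17.8% of all genes), and higher 6 (17.7%). By role, the median was -0.54 for adipokines (4 of 6 below 0), -0.26 for lipolysis (9 of 10), -0.25 for lipid droplet genes (5 of 6), -0.23 for other adipocyte proteins (2 of 4), -0.21 for uptake and triglyceride synthesis (9 of 11), -0.16 for lipogenesis (7 of 10), and -0.03 for glucose and insulin (3 of 5). It was above 0 for transcription factors (0.22, with 3 of 7 below 0) and for the complement substrates of Cfd (0.36, with 1 of 2). The largest decreases in estimate were those of Cidea, a droplet protein most abundant in brown fat (-0.99, SE 0.21, adjusted p 0.725), Hcar1, the lactate receptor (-0.89, SE 0.32, adjusted p 0.875), and Plin5 (-0.80, SE 0.40, adjusted p 0.884). The largest increases were those of Cebpd, an early adipogenic factor (0.84, SE 0.21, adjusted p 0.81), Slc7a10 (0.76, SE 0.53, adjusted p 0.889), and C3, the complement protein (0.75, SE 0.47, adjusted p 0.889). The receptors of adiponectin and leptin (Adipor1, Adipor2, Cdh13, and Lepr) had a median of -0.01.

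After adult irradiation 0 of 62 tested were called, 42 were below 0, and the median was -0.19. Scd, the desaturase of lipogenesis, had 318.3 and 1521 CPM in 4m0Gy and 370.3 and 311.5 in 4m4Gy (log2 fold change -1.44, SE 1.07, adjusted p 0.824). The high value was that of the second 4m0Gy library, in which 9 of the 10 genes were also higher. Cidea had -1.09 (SE 0.84, adjusted p 0.826), and Aqp7, the glycerol channel of adipocytes, -1.04 (SE 0.31, adjusted p 0.448) with groups that did not overlap. The largest increases were those of C3 (0.40), Cebpd (0.39), and Gpihbp1 (0.33), with adjusted p of 0.817, 0.585, and 0.535. In the interaction 0 of 65 were called. Its extremes were Agt (-0.74), Angptl4 (-0.54), and Gpihbp1 (-0.43) below 0, and Slc7a10 (1.49), Irs2 (1.23), and Zbtb16 (1.11) above, with adjusted p from 0.454 to 0.736.

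With age in sham-irradiated rats 2 of 65 lipid genes were called, against 1.06% of all genes. Acsl1, which activates fatty acids, fell from 152.5 ± 4.03 to 105.8 ± 3.73 CPM (SD, n = 2; log2 fold change -0.53, SE 0.07, adjusted p 0.0284), and G0s2, an inhibitor of adipose triglyceride lipase, fell from 20.2 ± 0.0173 to 12.6 ± 0.49 CPM (-0.68, SE 0.12, adjusted p 0.0474). Below 0 were 51 of the 65, with a median of -0.29. The largest estimates below 0 were those of Plin5 (-1.55), Scd (-1.26), and Rbp4 (-1.12), and above 0 those of Zbtb16 (1.27), Irs2 (0.78), and Slc7a10 (0.77), with adjusted p from 0.109 to 0.629.

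Markers of other tissues moved with these genes in part. Of 9 brown adipocyte markers, 8 were in the table, with a summed level of 62.9 to 151.6 CPM, and Elovl3 was at 0 in 7 libraries. Ucp1, which defines brown adipocytes, had 43.6 and 25.4 CPM in 1w0Gy against 19.2 and 6.37 in 1w4Gy, and 1.55 and 39.2 in 4m0Gy against 1.2 and 2.01 in 4m4Gy. It was thus higher in the same 4m0Gy library as 9 of the 10 genes. Of 7 brown markers tested, 5 were below 0 after neonatal irradiation, with a median of -0.26. Ppargc1a, a coactivator of mitochondrial genes (0.64, SE 0.18, adjusted p 0.849), and Cox7a1, a subunit of cytochrome oxidase (0.49, SE 0.33, adjusted p 0.889), were above 0, both without overlap. Another brown marker, Dio2, the deiodinase that activates thyroid hormone, fell with age from 9.55 ± 2.21 to 2.74 ± 0.856 CPM (-1.80, SE 0.28, adjusted p 0.0404). Summed over the lists, the 10 genes ranged from 229.0 to 679.4 CPM, 7 preadipocyte and stroma markers from 714.0 to 1116 CPM, 8 macrophage markers from 84.1 to 182.6 CPM, and 4 nerve and Schwann cell markers from 40.3 to 89.9 CPM, with the first 4m0Gy library lowest in stroma and macrophage markers.

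Of the stroma markers 5 of 7, and of the macrophage markers 7 of 8, were below 0 after neonatal irradiation, with medians of -0.12 and -0.17. Endothelial markers (7 in the table, 701.7 to 971.4 CPM) were above 0 for 6 of 7, with a median of 0.23, and thyroid follicular markers for 8 of 9 tested (0.11). Skeletal muscle markers (7.48 to 94.9 CPM, highest in the second 1w0Gy library) were below 0 for 6 of 6 tested, with a median of -0.75, and the 2 libraries of each group lay far apart, and none of the 6 was without overlap. The 3 parathyroid markers ranged from 343.1 to 5481 CPM, with the second 4m4Gy library lowest, and all 3 were lower without overlap after neonatal irradiation (median -0.61), as 17.8% of all genes were. C cell markers ranged from 3252 to 8271 CPM and lymphocyte markers from 1.16 to 3.34 CPM. With age in sham-irradiated rats macrophage markers were below 0 for 8 of 8, with 7 of them lower without overlap (24.8% of all genes) and a median of -0.67, and stroma markers for 6 of 7, with 5 lower without overlap and a median of -0.49. Nerve markers were then below 0 for 4 of 4 (median -0.39), brown markers for 4 of 7 (-0.15), endothelial markers for 5 of 7 (-0.10), and muscle markers for 4 of 6 (-0.76), and follicular markers for 2 of 9 (0.14). The part of these tissues in the differences of the 10 genes was not tested.

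**Figure D4:**
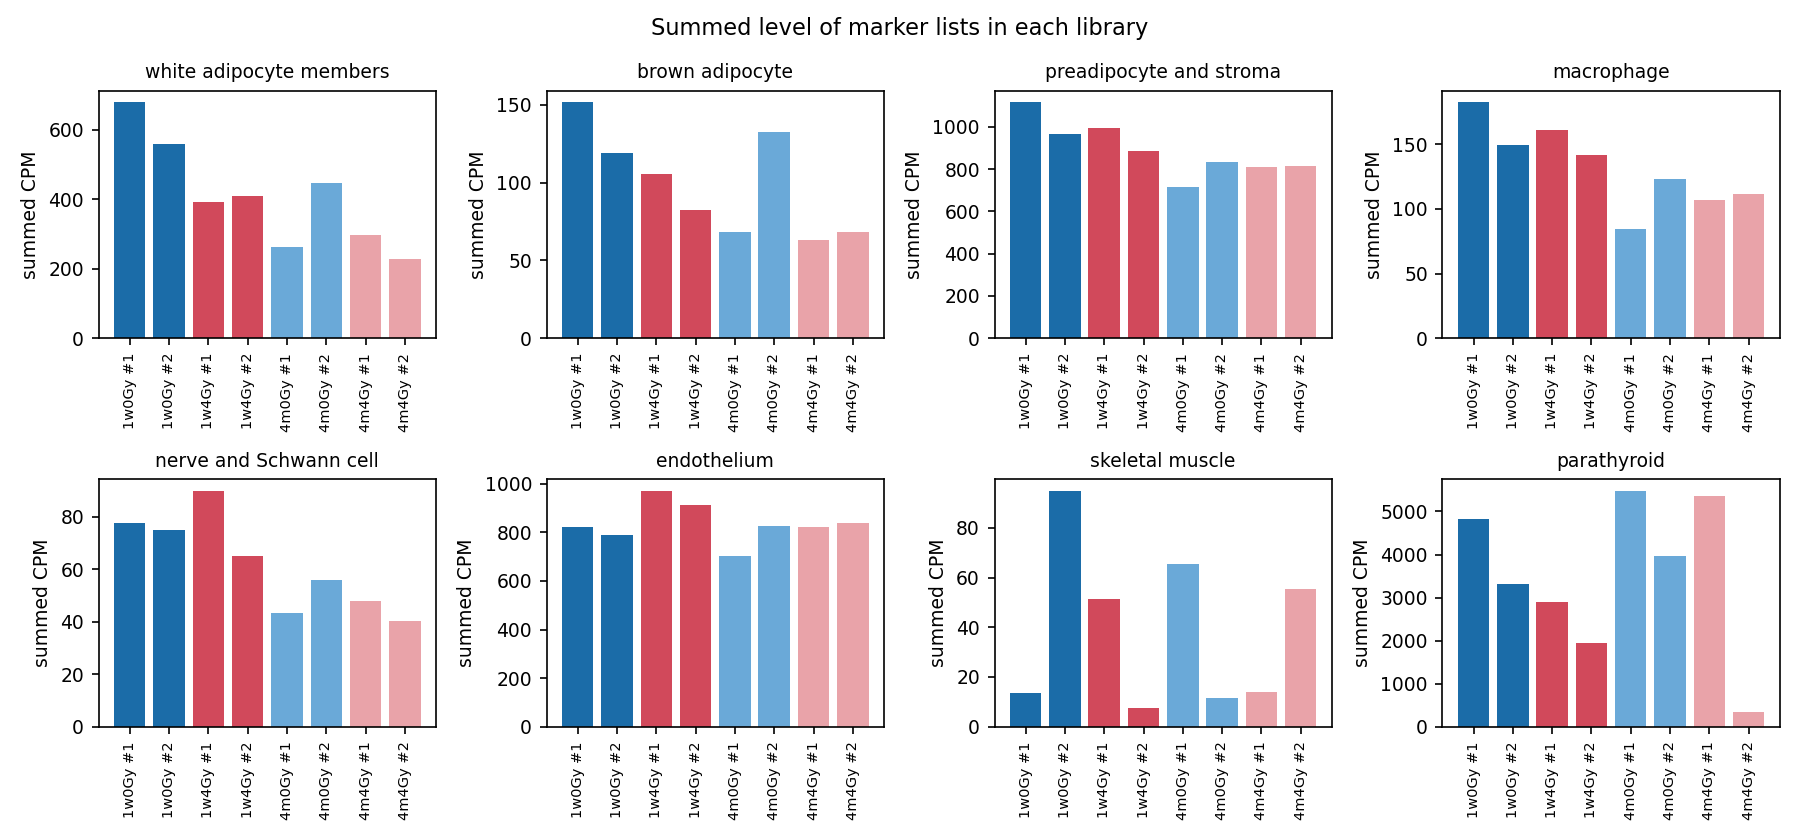
Summed CPM (vertical axis, starting at 0) of the 10 white adipocyte genes and of 7 marker lists in each of the 8 libraries (horizontal axis, coloured by group). Brown adipocyte markers in sum, like the 10 genes, are high in both 1w0Gy libraries and in the second 4m0Gy library (132.5 CPM). The single brown markers differed in their Pearson r with the mean of the 10 genes. It was 0.939 for Cidea, 0.902 for Ucp1, 0.853 for Dio2, 0.762 for Prdm16, 0.484 for Kcnk3, -0.384 for Ppargc1a, and -0.564 for Cox7a1. Muscle and parathyroid markers follow other orders. Pearson r of mean log2 CPM with the 10 genes was 0.903 for brown, 0.897 for stroma, 0.845 for nerve, and 0.84 for macrophage markers. It was 0.189 for endothelial, -0.198 for muscle, and 0.426 for parathyroid markers. For 2 lists not drawn it was -0.65 (thyroid follicular) and -0.231 (C cell). Without the 2 libraries whose mean of the 10 genes lay farthest from its median, r was -0.673 for parathyroid and -0.21 for follicular markers.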

How the data were processed

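Thyroid RNA of 8 rats was sequenced in pairs of reads from directional libraries. Per the labels and the study's methods, the authors mapped the reads with HISAT2 2.2.1 and counted them with featureCounts 2.0.0, and the genome build is not given in the sources used here. They deposited raw counts for 54991 transcripts, with transcript length, RPKM (not used here), and TPM, which the authors computed over all transcript rows, so that every TPM is lower than in a table with 1 row per gene.

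For each of 30560 gene identifiers (7162 without a name) the row with the largest total over the libraries was kept. Depth was 14835406 to 18138113 counts on genes per library. Over all genes the libraries of a group differed by more than counting error, which still weighs on low counts such as those of Adrb3. Counts were tested with edgeR 4.0.16 in R 4.3.3 (TMM, filterByExpr, robust quasi-likelihood fit, Benjamini-Hochberg). Irradiation at each age and age in sham-irradiated rats were each fitted on 4 libraries, and the interaction on all 8. SE is the absolute log2 fold change divided by the square root of F. The robust fit was chosen after seeing the data. Alternatives were DESeq2 1.42.0, other scalings, filters, transcript choices, 1 fit of all 8 libraries, a replicate block, log2(TPM + 1), and leaving out each library. The scripts were tested on simulated data.

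The 10 genes and all lists were chosen with earlier results of these data known. Named besides the 10 genes are, from the lipid list in each comparison, those called and the 3 largest increases and 3 largest decreases with a mean of at least 1 CPM, the 12 genes most like the mean of the 10, and defining markers. A result that this rule selects is not reported here. Prkar2b, Scd, and Ucp1 were given by library, and Ppargc1a and Cox7a1 named, after their values were seen.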

Additional observations from a re-analysis of the deposited data

How the results depend on the processing

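No member was called in the 3 comparisons of groups or the interaction as reported, and counts of members called differed as follows. Without a filter on low counts 1 was called after adult irradiation (Adrb3) and 3 with age (Adrb3, Cfd, and Pparg), and with DESeq2 1 with age (Cfd). With any 1 library left out the counts ranged from 0 to 1 after neonatal irradiation (Pck1, without the first 1w4Gy library), and 0 to 2 after adult irradiation. They stayed at 0 for the interaction and ranged from 0 to 7 with age, with 7 without the second 4m0Gy library, and 1 each without the first 4m0Gy library and without the second 1w0Gy library. A lone library is then assumed to vary like the others. The share of all genes called without a filter on low counts, or with 1 library left out, is not given here. The counts of members called in those fits, the 7 with age among them, therefore cannot be judged against all genes.

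The median of the members ranged with 1 library left out from -0.82 to -0.53 (neonatal), -0.92 to 0.0446 (adult), -0.54 to 0.10 (interaction), and -1.32 to -0.57 (age), and under the other settings from -0.70 to -0.60, -0.53 to -0.44, -0.27 to -0.22, and -0.91 to -0.83. Interaction medians above 0 were 0.10 without the first 4m0Gy library and 0.02 without the first 4m4Gy library. All 10 neonatal and all 10 age estimates stayed below 0 in every setting. Pparg after adult irradiation was 0.0022 with upper quartile scaling and 0.0038 with summed counts, and the Adipoq interaction was 0.0258 on log2(TPM + 1). The cause was not tested.

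Leaving out 1 library, adult estimates ranged from -1.04 to 0.0149 (Plin1), -0.36 to 0.0597 (Cidec), -0.38 to 0.24 (Lipe), -0.95 to 0.0296 (Fabp4), -1.21 to 0.35 (Pck1), -1.15 to 0.74 (Lep), -0.83 to 9.362e-05 (Cfd), and -0.33 to 0.24 (Pparg). Interaction estimates ranged from -0.86 to 0.19 (Plin1), -0.61 to 0.0049 (Lipe), -0.67 to 0.30 (Fabp4), -1.27 to 0.29 (Pck1), -0.41 to 0.30 (Adipoq), -1.88 to 0.0094 (Lep), and -0.74 to 0.0912 (Cfd).

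Same-numbered libraries of different groups correlated in their deviations from the group means by -0.236 to 0.189. Within an age the value was 0.138 for 1w0Gy and 1w4Gy and 0.118 for 4m0Gy and 4m4Gy. The labels do not say that the numbers pair the rats, and with 2 libraries per group these values cannot decide it. With the replicate number as a block 0 members were called in each comparison, with neonatal adjusted p of 0.0126 (Plin1), 0.025 (Pck1), and 0.0286 (Cfd) short of the fold limit. The share of all genes with an adjusted p under 0.05 at any fold in the block fit is not given here. Over all genes, edgeR, the block, and DESeq2 called 1, 10, and 13 genes (neonatal), 3, 12, and 6 (adult), 0, 0, and 26 (interaction), and 163, 14, and 342 (age). With the numbers crossed between the ages, an alternative chosen after seeing the data, 3 members and 346 genes were called with age. Depth limits Adrb3 most among the members, with 15 and 27 counts in 4m4Gy.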

Other observations

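Of 7 transcription factors tested in the lipid list, 4 were above 0 after neonatal irradiation (Cebpd, Klf15, Rxra, and Zbtb16). The other 3 were below 0, each lower without overlap, as 17.8% of all genes were. They were Cebpb (-0.54, SE 0.21, adjusted p 0.875), Zfp423 (-0.24, SE 0.19, adjusted p 0.894), and Ebf2 (-0.13, SE 0.16, adjusted p 0.938). Cebpd had 7.12 and 11.1 CPM in 1w0Gy against 16.5 and 16.1 in 1w4Gy, and 14.9 and 14.4 in 4m0Gy against 22.4 and 16.1 in 4m4Gy. Both irradiated groups lay above their sham groups without overlap, with log2 fold changes of 0.84 (SE 0.21, adjusted p 0.81) and 0.39 (SE 0.17, adjusted p 0.585), and neither passed the test. Klf15 was also higher without overlap at both ages, with 0.38 (SE 0.16, adjusted p 0.875) and 0.13 (SE 0.13, adjusted p 0.834). Rxra was higher without overlap after neonatal irradiation (0.24, SE 0.10, adjusted p 0.875) and lower without overlap after adult irradiation (-0.22, SE 0.12, adjusted p 0.665). Irs2, an insulin receptor substrate, had 44.6 and 73.9 CPM in 1w0Gy against 85.0 and 90.8 in 1w4Gy, and 104.6 and 98.7 in 4m0Gy against 53.2 and 76.0 in 4m4Gy, higher than sham after neonatal and lower after adult irradiation in every library. Its interaction was 1.23 (SE 0.38, adjusted p 0.465) and did not pass the test. Cebpd, Klf15, Rxra, Cebpb, Zfp423, Ebf2, and Irs2 were picked out after their values were seen.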
